A study of Mus musculus with 18 samples.

Results

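The TGF-beta ligands Tgfb1 and Tgfb3, the receptors Tgfbr1 and Tgfbr2, the receptor SMADs Smad2 and Smad3, the inhibitory SMAD Smad7 and the SKI co-repressors Ski and Skil were followed in dendritic cells (DCs) of the mouse intestine. These 9 genes, chosen by symbol as core parts of the pathway, are 9 of the 54232 genes in the deposited count table, and all 9 passed the filter on low counts that left 17074 genes for testing. The 18 RNA-seq libraries were of C57BL/6J mice and all 6 groups share the genotype label CD11a KO. CD11a, the product of Itgal, pairs with CD18 to form the leukocyte integrin LFA-1. The groups were CD11b+ DCs, CD103+ DCs and CD11b+ CD103+ double-positive (DP) DCs, each from the small intestinal lamina propria (LP) and from the intestinal lymph node (LN), with 3 libraries a group. No wild-type library was analysed here. Age, and which of the treatments in the shared protocol applies to these mice, were not given in the sources used here. A sort gate (live, single, CD45+ CD64- MHCII high CD11c+) is described for DCs of the C57BL/6 lamina propria, and nothing in the labels ties replicates to separate animals, so the p-values measure the spread between these libraries, which may be technical.

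TGF-beta is made as a latent complex and acts on cells only after it has been released from its latency peptide, a step in which the integrin alpha v beta 8 of intestinal DCs takes part. The active ligand brings together the type II receptor (Tgfbr2) and the type I receptor (Tgfbr1), which phosphorylates SMAD2 and SMAD3. These join SMAD4, enter the nucleus and change transcription, while SMAD7, SKI and SKIL hold the pathway back. In the gut the pathway is known for the induction of regulatory T cells by DCs and for the expression of CD103 (Itgae).

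The total count of a library lay between 23574292 and 46901985. Itgal was counted in every library, at 6.45 to 26.6 CPM (counts per 1000000 counts), so the transcript does not show the labelled knockout, and the genotype is used for no comparison. Where the targeted change lies was not given, and counts outside it would not test it. The DC genes Flt3, Zbtb46, Itgax and H2-Ab1 summed to between 4818 CPM (LN CD103+ DCs) and 29704 CPM (LP CD103+ DCs). H2-Ab1 made up most of this sum, at 3517 to 3622 CPM in LN CD103+ and 27198 to 28443 CPM in LP CD103+ DCs. Between the same groups Flt3 went the other way, at 996 to 1058 CPM in the LN and 599 to 666 CPM in the LP. Zbtb46 was at 170 to 177 CPM in the LN and 207 to 218 CPM in the LP. Itgax was at 81.0 to 89.3 CPM in the LN and 341 to 436 CPM in the LP. Within the LN the sort markers followed the labels in order, with Itgae at 27.0 to 49.1 CPM in CD103+ and DP DCs against 5.57 to 6.65 CPM in CD11b+ DCs, and Itgam, which encodes CD11b, at 13.8 to 25.7 CPM in CD11b+, 4.85 to 5.76 CPM in DP and 0.17 to 0.89 CPM in CD103+ DCs. Against the LP they were low, since Itgae in LN CD103+ and DP DCs lay below the 92.1 to 293 CPM of LP CD11b+ DCs, and Itgam in LN DP DCs lay below the 63.2 to 76.4 CPM of LP DP DCs. The type 2 conventional DC genes Sirpa and Irf4 summed to 9.63 to 10.8 CPM in LP and 37.2 to 47.2 CPM in LN CD103+ DCs. In DP DCs their sum was 486 to 507 CPM in the LP and 181 to 220 CPM in the LN. In CD11b+ DCs it was 532 to 674 CPM in the LP and 552 to 878 CPM in the LN. Whether a subset label holds the same cells in both tissues was not tested. The summed level of 7 T cell genes (Cd3e, Cd3d, Cd3g, Trac, Cd2, Lck and Bcl11b) was 5.14 to 25.7 CPM in LP libraries and 235 to 544 CPM in LN libraries. The plasma cell genes Jchain, Mzb1 and Sdc1, of which Jchain made up most, summed to 1405 to 1809 CPM in LP CD11b+ DCs. Their sum was 1178 to 1300 CPM in LN CD11b+ DCs and 187 to 502 CPM in the other groups. The epithelial genes Vil1, Krt8, Krt20, Fabp2 and Lgals4 summed to 25.2 to 144 CPM in LP CD11b+ DCs. They summed to 12.6 to 46.7 CPM in the other LP groups and 3.75 to 10.7 CPM in the LN. The part of these cell types was not tested. Xist lay under 0.29 CPM in all 9 LP libraries and at 15.4 to 89.1 CPM in all 9 LN libraries, and Ddx3y, which is Y-linked, lay at 50.04 to 74.4 CPM in all 9 LP libraries and in replicate 3 of LN CD11b+ (58.0 CPM) and LN DP DCs (52.2 CPM). Tissue and the sex of the animals cannot be told apart here. In bulk libraries, fewer cells that use a gene and less RNA per cell cannot be told apart either.

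The promoters of Tgfb1, the most abundant of the 9 genes per kilobase of exon in the LP, and of Smad3, which had the largest positive log2 fold change of the 9 in the LN of every subset, are shown because these genes moved in opposite directions between the tissues. The RefSeq promoter table (GRCm38.p6) held 5 of the 9 genes. The sequences are the 250 bases before the start site, for Tgfb1 on the plus strand of chr7:25686752-25687001 and for Smad3 on the minus strand of chr9:63757995-63758244. Capitals mark the letters GGGCGG on either strand (the GC box).
Tgfb1: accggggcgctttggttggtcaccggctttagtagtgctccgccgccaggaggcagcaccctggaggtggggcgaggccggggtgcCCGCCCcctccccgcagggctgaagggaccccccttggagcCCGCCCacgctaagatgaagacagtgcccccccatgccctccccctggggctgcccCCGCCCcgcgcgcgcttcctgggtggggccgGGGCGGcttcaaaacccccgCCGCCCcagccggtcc
Smad3: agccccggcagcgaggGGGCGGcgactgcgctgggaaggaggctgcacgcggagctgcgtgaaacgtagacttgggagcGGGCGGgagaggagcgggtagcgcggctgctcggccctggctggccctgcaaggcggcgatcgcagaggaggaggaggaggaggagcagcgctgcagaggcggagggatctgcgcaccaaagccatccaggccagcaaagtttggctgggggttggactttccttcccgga

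The stretch before Tgfb1 held 5 such matches and that before Smad3 held 2. In the full windows of the table, which run to 50 bases after the start, 35.7% of 32851 promoters held 1 GC box or more. Neither window held CAGAC, a SMAD-binding element (in 49.6% of all promoters), or TGANTCA, an AP-1 site (in 7.81%), on either strand. The Tgfbr2 window held CAGAC once, 160 bases before the start. The Tgfbr1 window at chr4:47385966-47386265 also held it once, 203 bases before its start. A match is a description of letters, not of a bound site.

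A gene was called between groups at a Benjamini-Hochberg adjusted p under 0.01 over all genes tested and a fold change over 2, in one edgeR quasi-likelihood fit of the 18 libraries. CPM values carry the TMM scaling (trimmed mean of M-values) of that fit. In LN against LP DCs, 1 of the 9 genes was called in CD11b+ DCs (15.2% of all genes tested were), 2 in CD103+ DCs (35% of all genes) and 5 in DP DCs (32.1% of all genes). Smad3 rose in the LN in all 3 subsets, Tgfb1 fell in CD103+ and DP DCs, Smad7 and Tgfbr1 fell in DP DCs and Tgfb3 rose in DP DCs. The median log2 fold change of the 9 genes was -0.30, -0.42 and -0.73 in these comparisons, beside 0.03, 0.04 and 0.07 over all genes tested. Under total counts without TMM the median of all genes moved to 0.17, -0.18 and -0.10, and in LN CD103+ against LN CD11b+ DCs it moved from -0.13 to -0.56. Values between subsets are given relative to the TMM scaling. Without the 2 LN libraries that carried both Xist and Ddx3y, Tgfb3 lost its call in DP DCs (adjusted p = 0.0272), Tgfbr1 was called in CD11b+ DCs (adjusted p = 0.00367), and the other tissue calls of the 9 genes were made as before.

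**Figure D1:**
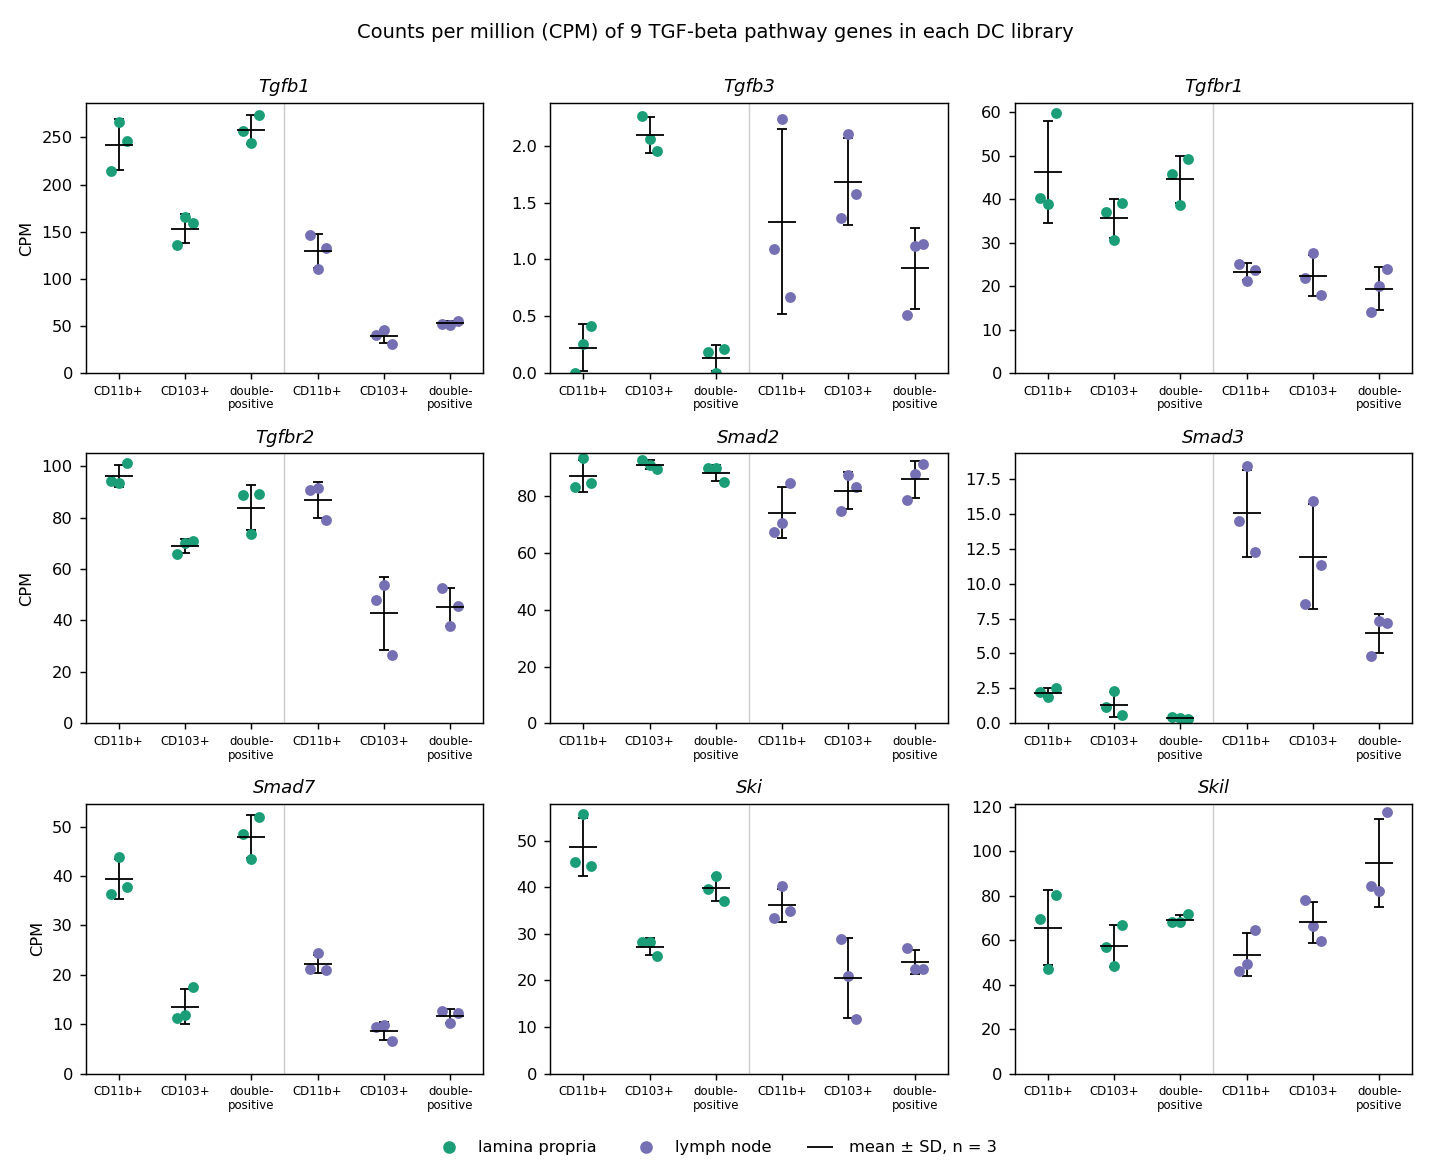
Level of each of the 9 genes in CPM (linear axis from 0, a scale of its own per gene) in the 18 libraries, by DC subset in the lamina propria (green) and lymph node (purple), with mean ± SD (n = 3). Tgfb1 was above 135 CPM in every LP library and at most 55.6 CPM in LN CD103+ and DP DCs, while Smad3 was at most 2.495 CPM in the LP and at least 4.84 CPM in the LN.

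Tgfb1 encodes TGF-beta1, the ligand made by most leukocytes (GRCm38 chr7:25687002-25705077, plus strand). In the LP it was at 214, 267 and 246 CPM in CD11b+ DCs, at 136, 165 and 159 CPM in CD103+ DCs and at 257, 244 and 274 CPM in DP DCs. In the LN it was at 146, 110 and 133 CPM in CD11b+ DCs, at 40.0, 45.1 and 31.0 CPM in CD103+ DCs and at 51.8, 50.4 and 55.6 CPM in DP DCs. Within each subset every LN library lay below every LP library. Over the 6 groups the order of means ran from LP DP (258 ± 15.0 CPM, SD, n = 3) and LP CD11b+ (242 ± 26.7), whose libraries overlapped, through LP CD103+ (153 ± 15.6) and LN CD11b+ (130 ± 17.997), which also overlapped, to LN DP (52.6 ± 2.70) and LN CD103+ DCs (38.7 ± 7.14), which did not.

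The fall of Tgfb1 from LP to LN was 3.96-fold in CD103+ DCs (log2 fold change -1.99, SE 0.13, edgeR adjusted p = 1.44e-09) and 4.91-fold in DP DCs (-2.30, SE 0.14, adjusted p = 3.50e-10). In CD11b+ DCs the difference was 1.87-fold (-0.90, SE 0.13, adjusted p = 3.90e-05) and stayed under the fold limit. The tissue effect itself differed between subsets (edgeR F test, adjusted p = 2.51e-05), in a test that called 2 of the 9 genes and 31.5% of all genes. Its difference from that of CD11b+ DCs was -1.08 (SE 0.18, adjusted p = 1.67e-04) for CD103+ DCs, where 1 of the 9 genes and 27.2% of all genes were called, and -1.39 (SE 0.18, adjusted p = 2.56e-05) for DP DCs, where 2 of the 9 genes and 18.7% of all genes were called. Between DP and CD103+ DCs the tissue effects of Tgfb1 differed by -0.31 (SE 0.18, adjusted p = 0.263), which was not called. Every one of these Tgfb1 calls was also made with any 1 of the 18 libraries left out.

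Tgfb3 encodes TGF-beta3 (chr12:86056745-86079041, minus strand) and was near the limit of detection, at no more than 2.26 CPM in any library. Its level is uncertain because it shares 163 exon bases with Gm37804 and 257 with Gm48008, and the counting described for related libraries ignored strand. In the LP its counts were 0, 7 and 13 reads in CD11b+ DCs, 64, 96 and 48 in CD103+ DCs and 5, 0 and 6 in DP DCs. In the LN they were 36, 69 and 20 reads in CD11b+ DCs, 33, 50 and 36 in CD103+ DCs and 13, 32 and 24 in DP DCs. LP CD103+ DCs (2.10 ± 0.16 CPM) stood above the other LP subsets, while the LN groups overlapped from neighbour to neighbour, at 0.92 to 1.69 CPM on average.

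Tgfb3 was 9.13-fold higher in LP CD103+ than in LP CD11b+ DCs (log2 fold change 3.19, SE 0.78, edgeR adjusted p = 0.00379), a comparison that called 2 of the 9 genes and 15.7% of all genes. It was lower in LP DP than in LP CD103+ DCs (-3.95, SE 0.83, adjusted p = 0.00130), where 3 of the 9 genes and 13.6% of all genes were called. The first of these calls was lost without LP CD11b+ replicate 2 (adjusted p = 0.0132) or LP CD103+ replicate 1 (adjusted p = 0.0105). In LN against LP DP DCs Tgfb3 rose (2.76, SE 0.84, adjusted p = 0.00913), but this call was lost without any of 14 of the 18 libraries (adjusted p at most 0.0326). The values were 2.54 (SE 0.77, adjusted p = 0.0156) in CD11b+ DCs and -0.31 (SE 0.68, adjusted p = 0.710) in CD103+ DCs, neither called.

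Set against each other per kilobase of exon, the 3 TGF-beta ligands were almost all Tgfb1 in the LP. Tgfb1 held 97.4% to 100.0% of their summed CPM per kb in LP libraries, 96.0% to 98.4% in LN CD11b+ DCs, 90.2% to 91.8% in LN DP DCs and 59.2% to 71.4% in LN CD103+ DCs. The remainder in LN CD103+ DCs was mainly Tgfb2, with 23.7% to 36.4%, while Tgfb3 held 3.40% to 4.98%. Shares of this kind depend on the exon lengths used and carry no test.

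Tgfbr1 encodes the type I receptor kinase (chr4:47353222-47414931, plus strand). In the LP it was at 40.2, 38.9 and 59.8 CPM in CD11b+ DCs, at 37.1, 30.6 and 39.0 CPM in CD103+ DCs and at 45.9, 38.6 and 49.2 CPM in DP DCs. LN libraries were at 25.0, 21.2 and 23.6 CPM in CD11b+ DCs, at 21.9, 27.5 and 17.9 CPM in CD103+ DCs and at 14.1, 20.1 and 23.9 CPM in DP DCs. The lowest LP library (30.6 CPM) was above the highest LN library (27.5 CPM), and within a tissue each group overlapped its neighbour in the order. It fell 2.31-fold in DP DCs (log2 fold change -1.20, SE 0.21, edgeR adjusted p = 8.48e-05). In CD11b+ DCs the value was -0.99 (SE 0.20, adjusted p = 0.00103), just inside the fold limit, and in CD103+ DCs -0.66 (SE 0.20, adjusted p = 0.00941). The call in DP DCs held without any 1 library, and the tissue effects of Tgfbr1 were not called as different between subsets (F test, adjusted p = 0.291).

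Tgfbr2 encodes the type II receptor, which binds the ligand first (chr9:116084293-116175360, minus strand). It was at 94.1, 93.5 and 101 CPM in LP CD11b+ DCs, at 65.9, 70.0 and 71.0 CPM in LP CD103+ DCs and at 88.7, 73.7 and 89.1 CPM in LP DP DCs. In the LN it was at 90.7, 91.3 and 78.9 CPM in CD11b+ DCs, at 48.0, 53.7 and 26.7 CPM in CD103+ DCs and at 52.6, 37.8 and 45.6 CPM in DP DCs. Every LN library of CD103+ and DP DCs lay below every LP library. LP CD11b+ DCs had the highest mean (96.3 ± 4.26 CPM, SD, n = 3), followed without overlap by LN CD11b+ and LP DP DCs, which overlapped each other, then LP CD103+ DCs, and then LN DP and LN CD103+ DCs, which overlapped.

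No tissue comparison of Tgfbr2 was called. The log2 fold change, LN against LP, was -0.15 (SE 0.18, edgeR adjusted p = 0.556) in CD11b+ DCs, -0.69 (SE 0.18, adjusted p = 0.00338) in CD103+ DCs and -0.89 (SE 0.18, adjusted p = 4.61e-04) in DP DCs. Within the LN, Tgfbr2 was 2.03-fold lower in CD103+ than in CD11b+ DCs (-1.02, SE 0.18, adjusted p = 1.50e-04), a comparison that called 3 of the 9 genes and 25.9% of all genes. The fold was near the limit and the call was lost without LN CD103+ replicate 3, the library at 26.7 CPM (-0.79, adjusted p = 7.79e-05), with DESeq2 as the test (-0.976), with DESeq2 size factors (-0.976) and in a fit of the 6 libraries compared (-0.994).

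Per kilobase of exon, Tgfbr1 was below Tgfbr2 in every library. Their ratio was 0.52 to 0.74 in LP libraries, 0.29 to 0.38 in LN CD11b+ DCs, 0.57 to 0.84 in LN CD103+ DCs and 0.34 to 0.66 in LN DP DCs. The 3 ratios of LN CD11b+ DCs lay below those of all LP libraries.

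Smad2 encodes a receptor SMAD (chr18:76241580-76310963, plus strand) and varied least among the 9 genes between groups. Its group means ran from 74.2 ± 9.09 CPM in LN CD11b+ DCs to 91.1 ± 1.62 CPM in LP CD103+ DCs, and each group overlapped its neighbour in that order. The values were 83.2, 93.6 and 84.5 CPM in LP CD11b+ DCs, 92.7, 91.0 and 89.5 CPM in LP CD103+ DCs and 89.8, 89.8 and 85.0 CPM in LP DP DCs. In the LN they were 67.4, 70.6 and 84.5 CPM in CD11b+ DCs, 74.8, 87.5 and 83.4 CPM in CD103+ DCs and 78.8, 88.0 and 91.3 CPM in DP DCs. The log2 fold change between tissues was -0.23 (SE 0.09, edgeR adjusted p = 0.0484), -0.15 (SE 0.09, adjusted p = 0.145) and -0.04 (SE 0.09, adjusted p = 0.740) in CD11b+, CD103+ and DP DCs, and none was called.

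Smad3 encodes the other receptor SMAD of TGF-beta, which binds DNA directly (chr9:63646767-63757994, minus strand), and rose in the LN in every subset. In the LP it was at 2.23, 1.87 and 2.495 CPM in CD11b+ DCs, at 1.17, 2.28 and 0.57 CPM in CD103+ DCs and at 0.48, 0.41 and 0.29 CPM in DP DCs, the last from 13, 12 and 8 reads. LN libraries were at 14.5, 18.4 and 12.3 CPM in CD11b+ DCs, at 8.503, 15.9 and 11.3 CPM in CD103+ DCs and at 4.84, 7.33 and 7.17 CPM in DP DCs. All 9 LN libraries lay above all 9 LP libraries. In both tissues the order of means was CD11b+, CD103+ and DP, with overlap between CD11b+ and CD103+ DCs and none between CD103+ and DP DCs.

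Smad3 rose 6.83-fold in CD11b+ DCs (log2 fold change 2.77, SE 0.38, edgeR adjusted p = 2.53e-05), 8.66-fold in CD103+ DCs (3.11, SE 0.39, adjusted p = 2.55e-06) and 16.3-fold in DP DCs (4.03, SE 0.43, adjusted p = 4.95e-07). All 3 calls held without any 1 library. The tissue effects of Smad3 were not called as different between subsets (F test, adjusted p = 0.161). The 7 T cell genes moved the same way, with all 7 called higher in each of the 3 comparisons (median log2 fold change 4.63, 6.09 and 5.03 in CD11b+, CD103+ and DP DCs). In the LN the T cell genes summed to 235 to 452 CPM in CD11b+, 313 to 544 CPM in CD103+ and 257 to 441 CPM in DP DCs. Of the B cell genes Cd79a, Cd79b and Ms4a1, 3, 2 and 3 were called higher in the LN in CD11b+, CD103+ and DP DCs. They summed to 7.49 to 42.7 CPM in the LP, and in the LN to 99.2 to 142 CPM in CD11b+, 31.9 to 35.4 CPM in CD103+ and 43.2 to 51.7 CPM in DP DCs. The part of either cell type in the rise of Smad3 was not tested.

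Between subsets in the LP, Smad3 was 5.56-fold lower in DP than in CD11b+ DCs (log2 fold change -2.48, SE 0.42, edgeR adjusted p = 7.51e-04), as the 1 gene of the 9 called beside 4.81% of all genes. It was 3.48-fold lower in DP than in CD103+ DCs (-1.80, SE 0.42, adjusted p = 0.00315). The second call was lost without LP CD103+ replicate 2 (-1.16, adjusted p = 0.0353), LP DP replicate 2 (-1.83, adjusted p = 0.0127) or LP DP replicate 3 (-1.62, adjusted p = 0.0198). In the LN the difference of Smad3 between DP and CD11b+ DCs was -1.22 (SE 0.36, adjusted p = 0.0108), just outside the threshold. The deviations of same-numbered libraries of these LN groups had r of 0.1099, 0.120 and 0.292 for replicates 1, 2 and 3. Both replicate 3 libraries carried Xist and Ddx3y, and what same-numbered libraries share was not tested. With the replicate number as a block in the edgeR fit Smad3 was called (-1.21, SE 0.32, adjusted p = 0.00704).

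Per kilobase of exon, Smad3 was the minor receptor SMAD in every library, but by very different margins. The ratio of Smad3 to Smad2 was 0.0316 to 0.0468 in LP CD11b+ DCs, 0.0101 to 0.0397 in LP CD103+ DCs and 0.00532 to 0.00855 in LP DP DCs. In the LN it was 0.230 to 0.413 in CD11b+ DCs, 0.180 to 0.289 in CD103+ DCs and 0.0975 to 0.132 in DP DCs. The lowest LN ratio was above the highest LP ratio.

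**Figure D2:**
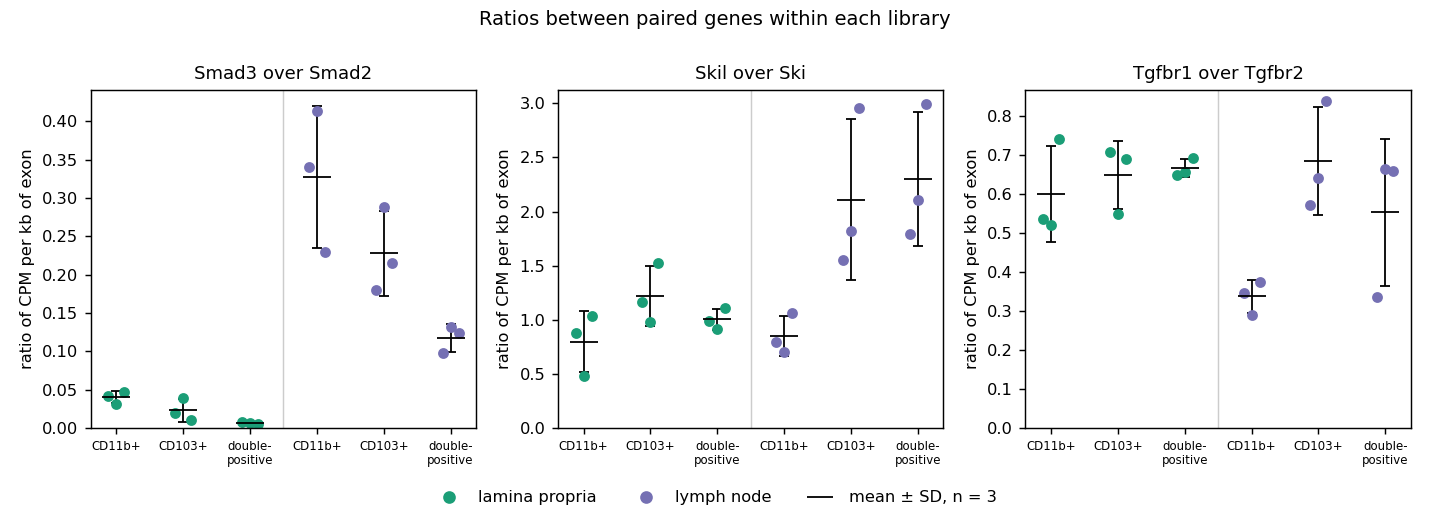
Ratio of CPM per kb of exon between the receptor SMADs (Smad3 over Smad2), the SKI co-repressors (Skil over Ski) and the receptors (Tgfbr1 over Tgfbr2) in the 18 libraries, with mean ± SD (n = 3) for each group, on linear axes from 0. The Smad3 to Smad2 ratio was at most 0.0468 in the lamina propria (green) and at least 0.0975 in the lymph node (purple).

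Smad7 encodes the inhibitory SMAD, itself a target gene of the pathway, which blocks the type I receptor (chr18:75367529-75395935, plus strand). In the LP it was at 36.4, 43.9 and 37.8 CPM in CD11b+ DCs, at 11.3, 11.9 and 17.6 CPM in CD103+ DCs and at 48.5, 43.4 and 52.0 CPM in DP DCs. In the LN it was at 21.2, 24.3 and 21.0 CPM in CD11b+ DCs, at 9.42, 9.83 and 6.53 CPM in CD103+ DCs and at 12.6, 10.2 and 12.3 CPM in DP DCs. LP DP and LP CD11b+ DCs were highest and overlapped, followed without overlap by LN CD11b+ DCs. LP CD103+ and LN DP DCs came next and overlapped, and LN CD103+ DCs were lowest, without overlap.

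Smad7 fell 4.11-fold from LP to LN in DP DCs (log2 fold change -2.04, SE 0.18, edgeR adjusted p = 4.69e-08). The values were -0.83 (SE 0.17, adjusted p = 0.00117) in CD11b+ DCs and -0.66 (SE 0.18, adjusted p = 0.00416) in CD103+ DCs, both under the fold limit. The tissue effect differed between subsets (F test, adjusted p = 4.00e-04), with that of DP DCs -1.21 (SE 0.24, adjusted p = 0.00126) from CD11b+ DCs and -1.38 (SE 0.25, adjusted p = 6.76e-04) from CD103+ DCs, the latter in a test that called 1 of the 9 genes and 13.1% of all genes. Between CD103+ and CD11b+ DCs the difference was 0.17 (SE 0.25, adjusted p = 0.633).

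Within tissues, Smad7 was lower in CD103+ than in CD11b+ DCs, by 2.90-fold in the LP (log2 fold change -1.54, SE 0.18, edgeR adjusted p = 2.55e-06) and 2.58-fold in the LN (-1.37, SE 0.18, adjusted p = 6.23e-06). In the LP it was 3.54-fold higher in DP than in CD103+ DCs (1.82, SE 0.18, adjusted p = 4.19e-07), and in the LN the same comparison gave 0.44 (SE 0.18, adjusted p = 0.0855). All Smad7 calls held with any 1 library left out. The macrophage genes Fcgr1, Mertk, Adgre1 and C5ar1 also differed between these groups in their sum, at 99.9 to 154 CPM in LP CD11b+ and 182 to 215 CPM in LP DP DCs, 18.7 to 29.5 CPM in LP CD103+ DCs, 126 to 217 CPM in LN CD11b+ DCs, 29.5 to 38.7 CPM in LN DP DCs and 4.01 to 6.06 CPM in LN CD103+ DCs, where Fcgr1 was at 0. Adgre1 made up most of this sum, at 79.1 to 122 CPM in LP CD11b+ and 177 to 210 CPM in LP DP DCs. Between these groups the other genes of the sum went the other way. From LP CD11b+ to LP DP DCs, Fcgr1 went from 7.90 to 11.1 CPM to 1.15 to 1.53 CPM. C5ar1 went from 7.47 to 18.8 CPM to 1.39 to 3.28 CPM, and Mertk from 1.80 to 4.71 CPM to at most 0.58 CPM. The part of the macrophage genes in the levels of Smad7 was not tested.

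Tgfb1 also differed between LN subsets. It was 3.35-fold lower in LN CD103+ than in LN CD11b+ DCs (log2 fold change -1.74, SE 0.13, edgeR adjusted p = 1.17e-08). It was 2.47-fold lower in LN DP than in LN CD11b+ DCs (-1.30, SE 0.13, adjusted p = 6.43e-07), where 1 of the 9 genes was called without the replicate block and 2 with it, beside 16.7% of all genes. Between LN DP and LN CD103+ DCs edgeR called 0 of the 9 genes, as did DESeq2, beside 6.53% of all genes called by edgeR. At an unadjusted edgeR p under 0.05, a looser rule, 4 of the 9 passed. The share of all genes under that rule was not computed, so this number has no background to be read against. In the LP the values of Tgfb1 were -0.66 (SE 0.13, adjusted p = 5.94e-04) for CD103+ against CD11b+ DCs and 0.75 (SE 0.13, adjusted p = 1.91e-04) for DP against CD103+ DCs, both under the fold limit.

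Ski (chr4:155154075-155222592, minus strand) and Skil (chr3:31095058-31122577, plus strand) encode related co-repressors that bind SMAD complexes on DNA. Ski was at 45.4, 55.7 and 44.5 CPM in LP CD11b+ DCs, at 28.2, 28.3 and 25.3 CPM in LP CD103+ DCs and at 39.6, 42.5 and 37.1 CPM in LP DP DCs. LN libraries were at 33.4, 40.2 and 34.8 CPM in CD11b+ DCs, at 28.8, 20.9 and 11.6 CPM in CD103+ DCs and at 26.9, 22.4 and 22.5 CPM in DP DCs. CD11b+ DCs held the highest mean of each tissue, and CD103+ DCs overlapped between tissues.

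No comparison of Ski was called. The tissue effect was -0.43 (SE 0.21, edgeR adjusted p = 0.125) in CD11b+ DCs, -0.42 (SE 0.21, adjusted p = 0.103) in CD103+ DCs and -0.73 (SE 0.21, adjusted p = 0.00711) in DP DCs. CD103+ against CD11b+ DCs gave -0.83 (SE 0.21, adjusted p = 0.00520) in the LP and -0.82 (SE 0.21, adjusted p = 0.00383) in the LN, both under the fold limit. Without LN CD103+ replicate 1 the LN value became -1.17 (adjusted p = 1.32e-04) and was called.

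Skil was at 69.7, 47.0 and 80.1 CPM in LP CD11b+ DCs, at 57.1, 48.2 and 66.9 CPM in LP CD103+ DCs and at 68.2, 68.0 and 71.5 CPM in LP DP DCs. In the LN it was at 46.2, 49.4 and 64.4 CPM in CD11b+ DCs, at 78.02, 66.5 and 59.8 CPM in CD103+ DCs and at 84.1, 82.3 and 118 CPM in DP DCs. LN DP DCs stood above every other group, and the other 5 groups overlapped from neighbour to neighbour. Skil was called in no comparison of groups, with tissue effects of -0.30 (SE 0.19, edgeR adjusted p = 0.231), 0.25 (SE 0.19, adjusted p = 0.267) and 0.45 (SE 0.19, adjusted p = 0.0486) in CD11b+, CD103+ and DP DCs. The difference between LN DP and LN CD11b+ DCs was 0.83 (SE 0.19, adjusted p = 0.00192), under the fold limit. Its tissue effect in DP DCs differed from that in CD11b+ DCs by 0.75 (SE 0.27, adjusted p = 0.0439), which was called without LP CD11b+ replicate 2 (0.94, adjusted p = 0.00757). Per kilobase of exon, the ratio of Skil to Ski was 0.48 to 1.52 in LP libraries and 0.71 to 1.06 in LN CD11b+ DCs, but 1.56 to 2.95 in LN CD103+ and 1.80 to 2.99 in LN DP DCs, so that Skil was the more abundant in every library of these last groups.

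**Figure D3:**
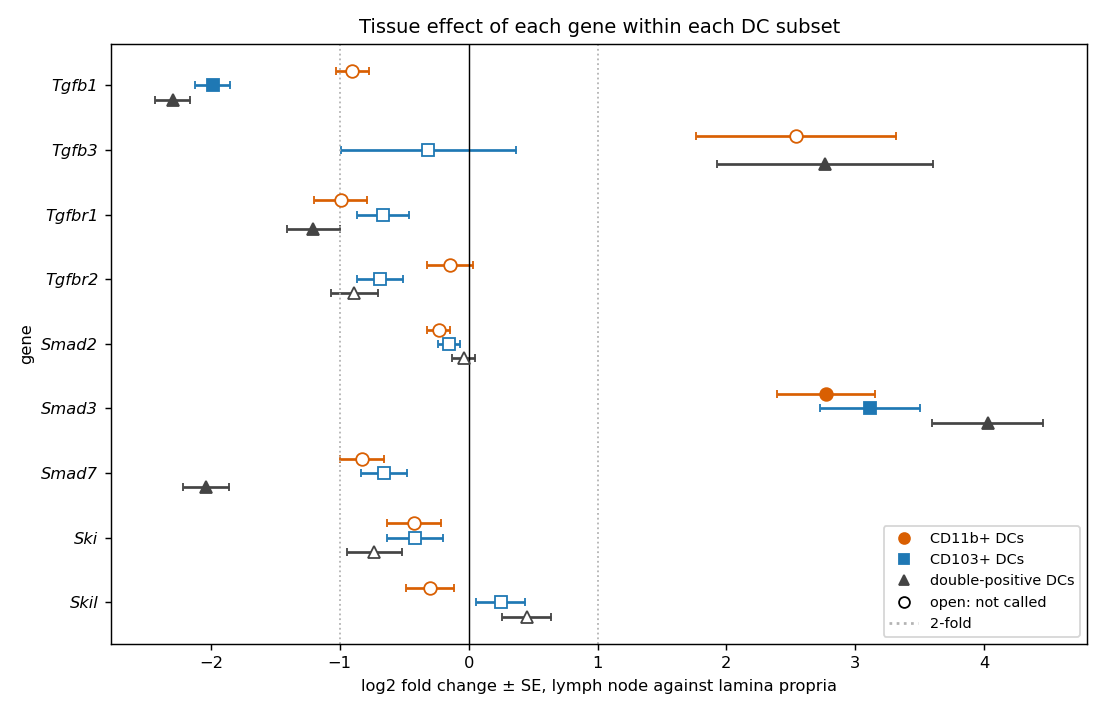
Log2 fold change of each of the 9 genes, LN against LP, with its SE from the edgeR fit, in CD11b+ (orange circles), CD103+ (blue squares) and DP DCs (grey triangles); filled symbols were called and dotted lines mark a 2-fold change. Smad3 lies at 2.77 to 4.03 in all 3 subsets, Tgfb1 lies at -0.90 in CD11b+ DCs and at -1.99 and -2.30 in the other subsets, and Smad2 lies at -0.23 to -0.04.

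The other genes of the pathway were counted in 5 lists, of which 65 of 67 genes passed the filter on low counts. In LN against LP DCs, 12 rose and 6 fell in CD11b+ DCs, 21 rose and 11 fell in CD103+ DCs and 20 rose and 6 fell in DP DCs. Over all genes tested the shares called higher were 10.3%, 19.8% and 18.6%, and those called lower 4.93%, 15.1% and 13.6%. The median log2 fold change over the 65 genes was -0.01, 0.43 and 0.50, beside 0.03, 0.04 and 0.07 for all genes.

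Among 16 tested genes for latency and activation of TGF-beta, 4 rose and 2 fell in CD11b+ DCs, 6 rose and 3 fell in CD103+ DCs, and 6 rose and 1 fell in DP DCs, with list medians of -0.08, 0.17 and 0.92. Itgb8, the beta chain of the activating integrin alpha v beta 8, rose in all 3 subsets. It was at 3.15, 1.83 and 4.85 CPM in LP CD103+ DCs and at 105, 120 and 124 CPM in LN CD103+ DCs, which is 36.2-fold higher (log2 fold change 5.18, SE 0.34, edgeR adjusted p = 8.34e-10). In DP DCs Itgb8 went from at most 0.96 CPM in the LP to 21.5, 27.4 and 32.1 CPM in the LN (5.26, SE 0.37, adjusted p = 2.85e-09), and in CD11b+ DCs from at most 0.57 CPM to 3.77, 3.54 and 2.997 CPM (3.46, SE 0.42, adjusted p = 6.07e-06). Itgav, which encodes the alpha v chain, was added after its values were seen. It was at 35.7, 31.7 and 36.9 CPM in LP CD103+ DCs and lower, at 12.8, 11.2 and 11.1 CPM, in LN CD103+ DCs. In DP DCs Itgav was at 19.9, 18.7 and 15.6 CPM in the LP and 14.8, 9.25 and 16.4 CPM in the LN. In CD11b+ DCs it was at 19.2, 16.1 and 19.2 CPM in the LP and 20.2, 25.9 and 22.9 CPM in the LN.

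Tgfb2, the remaining TGF-beta ligand, lay at no more than 0.43 CPM (1 to 12 reads) in any LP library. LN libraries were at 20.7, 17.2 and 21.9 CPM in CD103+ DCs, at 4.41, 4.40 and 3.80 CPM in DP DCs and at 0.94, 1.46 and 1.40 CPM in CD11b+ DCs. Tgfb2 was called higher in all 3 subsets (edgeR adjusted p = 2.08e-08 in CD103+, 3.69e-06 in DP and 0.00372 in CD11b+ DCs), and its folds are not given because of the few LP reads. The LN order of Tgfb2 and of Itgb8 was CD103+, then DP, then CD11b+ DCs without overlap, the reverse of the order of Tgfb1.

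Itgb5, another integrin beta chain, rose in CD103+ DCs (from 3.15 ± 0.32 to 46.1 ± 9.34 CPM) and DP DCs (from 3.30 ± 0.73 to 27.4 ± 1.03 CPM), and stood at 34.1 ± 10.4 and 20.7 ± 2.56 CPM in LP and LN CD11b+ DCs, uncalled. Ltbp2 encodes a matrix protein of the family named latent TGF-beta binding proteins. Ltbp2 rose in CD11b+ (from 0.55 ± 0.35 to 8.35 ± 3.86 CPM) and DP DCs (from 0.44 ± 0.20 to 5.75 ± 1.60 CPM). Furin, the protease that cleaves the precursor, was called in no subset and had group means of 42.6 to 62.7 CPM. Nrros, which holds latent TGF-beta1 on the surface of myeloid cells, was picked for display after its values were seen. Nrros fell 5.62-fold in CD103+ DCs (from 190 ± 9.76 to 33.8 ± 7.86 CPM, adjusted p = 5.10e-10) and 8.56-fold in DP DCs (from 521 ± 28.0 to 60.8 ± 4.00 CPM, adjusted p = 6.05e-11), while CD11b+ DCs stood at 607 ± 56.6 and 512 ± 91.7 CPM (adjusted p = 0.1996), all by edgeR.

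**Figure D4:**
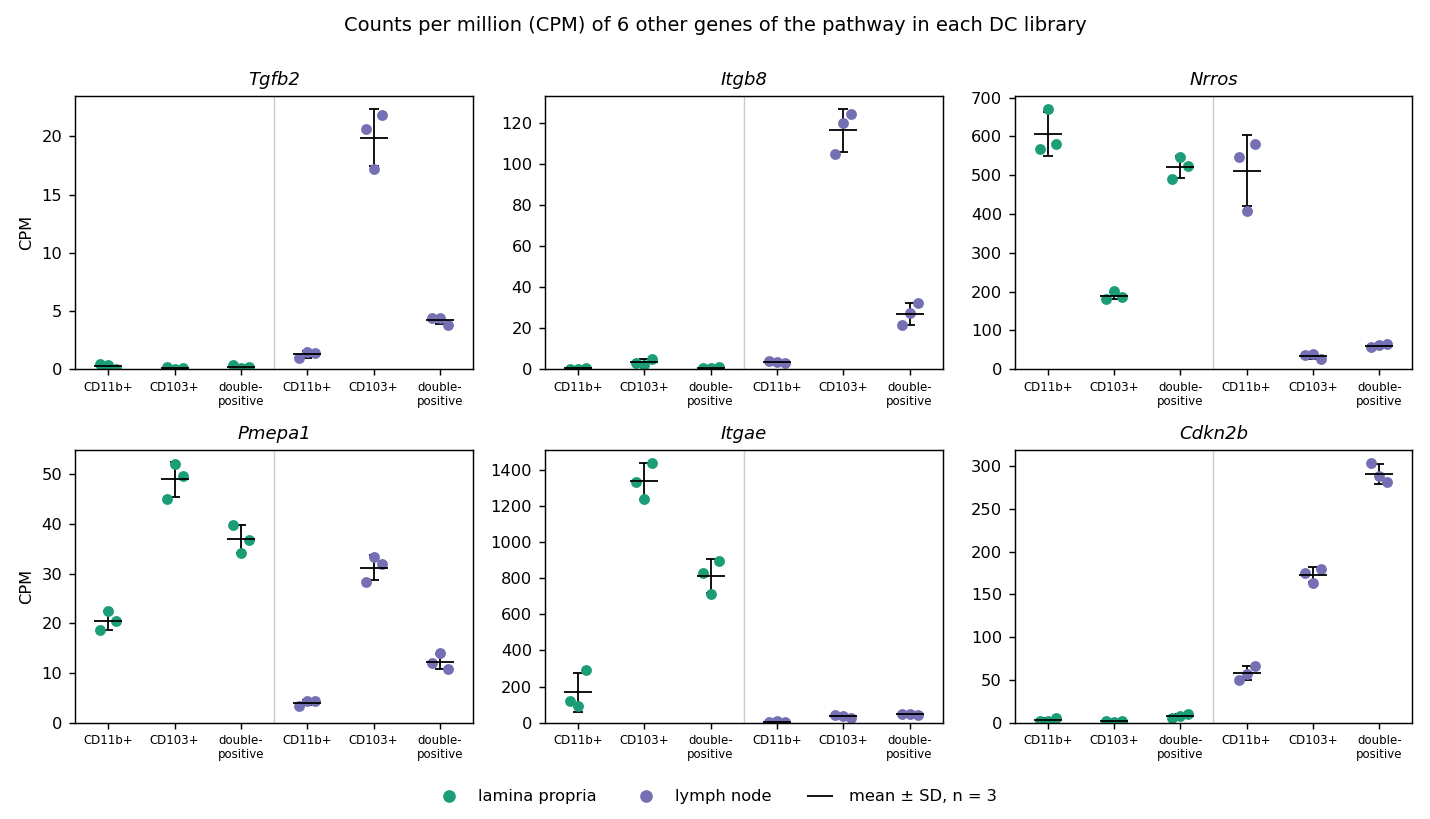
Level in CPM (linear axes from 0) of Tgfb2, Itgb8, Nrros, Pmepa1, Itgae and Cdkn2b in the 18 libraries, by DC subset in the lamina propria (green) and lymph node (purple), with mean ± SD (n = 3). Itgb8 reached 105 to 124 CPM and Tgfb2 17.2 to 21.9 CPM in LN CD103+ DCs, where Nrros was at 33.8 ± 7.86 CPM.

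Of 10 other receptors of the superfamily, 2 rose and 1 fell in CD11b+ DCs, 4 rose and 1 fell in CD103+ DCs, and 4 rose and 0 fell in DP DCs (medians 0.22, 1.12 and 0.87). Acvrl1, the type I receptor ALK1, was highest in LP CD103+ DCs (301 ± 13.1 CPM) and fell to 56.0 ± 2.00 CPM in the LN (log2 fold change -2.43, SE 0.13, edgeR adjusted p = 7.33e-11). Acvrl1 also fell in CD11b+ DCs, from 63.5 ± 9.32 to 25.0 ± 4.40 CPM. Acvr2a, a type II activin receptor, rose in all 3 subsets by 2.08-fold to 2.37-fold, and Acvr2b rose in CD103+ DCs (from 2.66 ± 0.54 to 6.43 ± 2.39 CPM). Bambi, a pseudoreceptor that blocks signalling, was called in none, at group means of 2.00 to 16.5 CPM.

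Of 4 other SMADs tested, Smad4, the partner of all receptor SMADs, rose in CD103+ DCs (2.13-fold, from 95.8 ± 6.91 to 204 ± 27.3 CPM, edgeR adjusted p = 2.82e-08) and DP DCs (2.35-fold, from 86.3 ± 0.93 to 203 ± 20.2 CPM, adjusted p = 8.23e-09). In CD11b+ DCs Smad4 went from 114 ± 4.65 to 165 ± 6.72 CPM, 1.45-fold and under the fold limit (adjusted p = 2.24e-04). Smad1, a receptor SMAD of the BMP branch, was called in none and had group means of 74.4 to 156 CPM. The medians of the list were 0.18, 0.31 and 0.79 in CD11b+, CD103+ and DP DCs.

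Of 20 modulators of signalling, 2 rose and 2 fell in CD11b+ DCs, and 3 rose and 2 fell in both CD103+ and DP DCs (medians -0.02, 0.19 and 0.20). Pmepa1, a target gene whose product keeps SMAD2 and SMAD3 from the receptor, fell 5.07-fold in CD11b+ DCs (from 20.5 ± 1.87 to 4.05 ± 0.56 CPM, edgeR adjusted p = 1.68e-09) and 3.004-fold in DP DCs (from 37.0 ± 2.78 to 12.3 ± 1.56 CPM, adjusted p = 1.40e-08). In CD103+ DCs Pmepa1 was at 49.0 ± 3.55 and 31.2 ± 2.52 CPM, 1.57-fold apart and under the fold limit. Dab2, an endocytic adaptor that binds the receptors and is also high in macrophages, fell in CD11b+ (from 132 ± 61.1 to 5.93 ± 2.06 CPM) and DP DCs (from 7.32 ± 1.65 to 0.71 ± 0.17 CPM). Ldlrad4, which like Pmepa1 sequesters receptor SMADs, rose in all 3 subsets by 2.30-fold to 3.14-fold, and Cited2, a transcriptional co-regulator, rose in CD11b+ (2.71-fold) and DP DCs (3.96-fold). Strap, which binds the receptors, was called in none at group means of 105 to 167 CPM.

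The 15 known target genes split in both directions. In CD11b+ DCs 4 rose and 1 fell, in CD103+ DCs 7 rose and 5 fell, and in DP DCs 6 rose and 3 fell, with list medians of -0.17, 1.16 and 1.10. Cdkn2b, which encodes the cell cycle inhibitor p15, rose in all 3 subsets, to 57.8 ± 8.24 CPM in CD11b+, 173 ± 8.79 CPM in CD103+ and 291 ± 11.7 CPM in DP DCs from at most 10.5 CPM in any LP library. Gadd45b, a stress gene, rose in all 3 as well, from 37.7 ± 12.4 to 1672 ± 145 CPM in CD103+ DCs (edgeR adjusted p = 6.06e-11). Cdkn1a, which encodes p21, rose in CD103+ (15.2-fold) and DP DCs (8.93-fold). These genes answer to many signals beside TGF-beta.

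Itgae, the CD103 chain and a sort marker of these subsets, fell in all 3 subsets. It went from 1337 ± 101 to 35.4 ± 7.28 CPM in CD103+ DCs (37.8-fold, edgeR adjusted p = 9.64e-10), from 812 ± 92.1 to 46.1 ± 4.35 CPM in DP DCs (17.6-fold, adjusted p = 1.22e-08) and from 169 ± 108 to 5.97 ± 0.59 CPM in CD11b+ DCs. Junb, an AP-1 subunit, was called in none of the 3 comparisons although it was the most abundant of the list, at group means of 1088 to 4032 CPM. Of 5 DC maturation genes, Ccr7, Fscn1 and Cd40 rose in all 3 subsets, while Cd86 fell in CD103+ DCs (from 512 to 646 CPM in the LP to 140 to 154 CPM in the LN), Cd80 fell in DP DCs (from 31.8 to 41.7 CPM to 16.3 to 18.2 CPM) and neither was called in the other subsets. The 5 genes stood at a summed 235 to 954 CPM in LP libraries, 2091 to 3091 CPM in LN CD11b+, 19600 to 20642 CPM in LN CD103+ and 14034 to 14820 CPM in LN DP DCs. Their relation to the pathway genes was not tested.

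**Figure D5:**
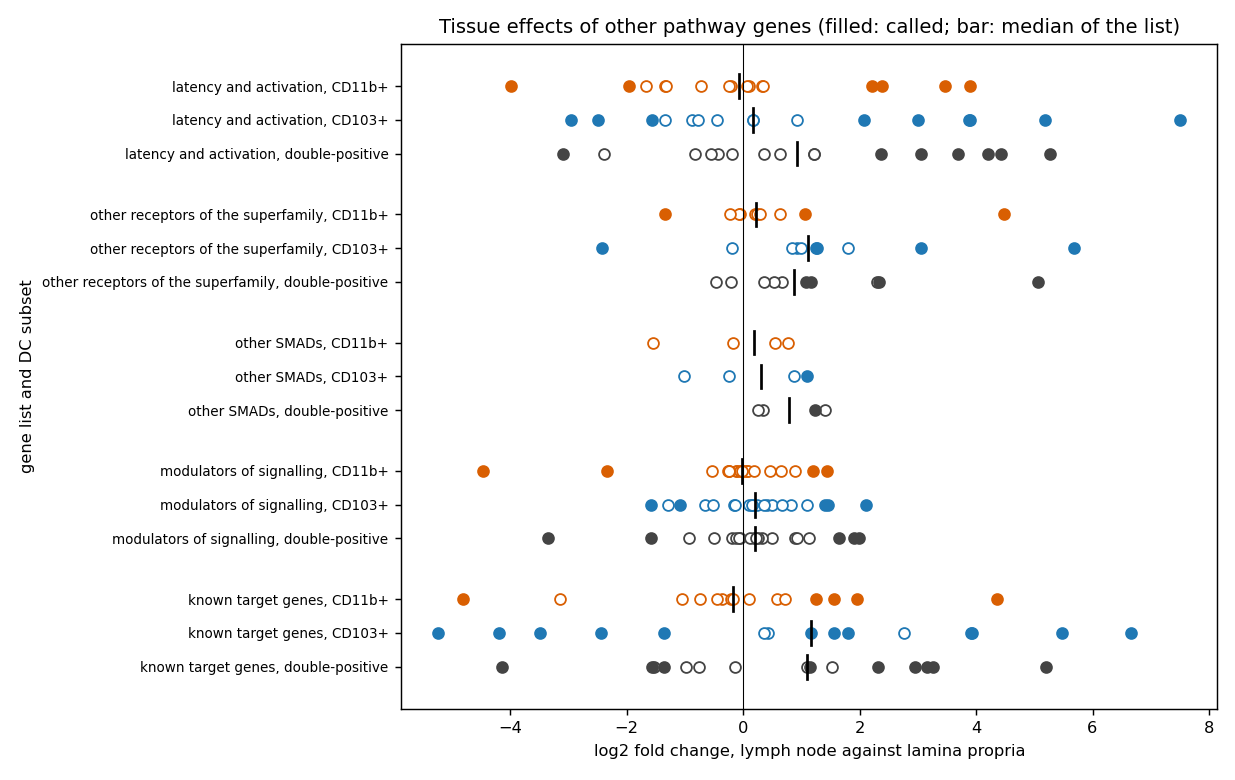
Log2 fold change, LN against LP, of 65 other genes of the pathway, 1 row per list and DC subset, with filled symbols for called genes, open symbols for the others and a bar at the median of the list. The known target genes spread to both sides of 0 in every subset, with medians of -0.17 in CD11b+, 1.16 in CD103+ and 1.10 in DP DCs.

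For each of the 9 genes the genes with the most similar pattern were sought by Pearson r of log2 CPM over the 18 libraries, among up to 8674 genes with a mean of at least 10 CPM. The libraries of a group share their subset and tissue, so r describes mostly the differences between groups and carries no test. Tgfb1 was followed most closely by Rin3 (r = 0.994) and Idh3a (0.992), Smad7 by Kcne3 (0.982) and Siglece (0.979), and Smad3 by Sort1 (0.970) and Ptprcap (0.961). Tgfbr2 was nearest to 9930111J21Rik2 (0.957) and Tcof1 (0.956), Ski to Hrh2 (0.937) and Dgkz (0.930), and Tgfbr1 to Dtx4 (0.933) and Slc16a6 (0.928). The values were lower for Tgfb3 with Ints6 (0.877) and Tmem126b (0.870), Smad2 with Pdlim5 (0.835) and Mfsd14b (0.788), and Skil with Tnip2 (0.835) and Ahrr (0.821).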

How the data were processed

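RNA-seq libraries of 18 sorted DC populations (6 groups of 3, taken from the labels) were analysed. The authors deposited raw read counts per gene for 54232 Ensembl identifiers. The submitters' processing notes name FastQC 0.11.7, STAR 2.6 and the build GRCm38, and the study's methods describe SMART-seq libraries, unique alignments and counting by STAR without strand for related DC samples. For the libraries analysed here, the sources do not give the kit or the counting. Symbols (54079 identifiers matched), positions and exon lengths came from GENCODE vM21 (GRCm38), and promoter sequences from RefSeq (GRCm38.p6).

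The 9 genes, the gene lists, the named genes and the tests were chosen with earlier results of these data known. Beside the 9 genes, the text names the 2 most similar genes of each and, per pathway list, up to 4 genes with the largest called tissue effect (and 5 CPM or more in the group with the higher mean) and the most abundant gene called in none. CPM and tests came from edgeR 4.0.16 in R 4.3.3 (TMM, filterByExpr, glmQLFit and glmQLFTest, no covariate), with SEs derived from the test statistic, and the code was tested on simulated data. Alternatives were DESeq2 1.42.0 as scaling or test, total counts, filters, thresholds, fits of 6 libraries, a replicate block, and each library left out. A block nested in tissue and a fit without the 2 LN libraries with both sex-linked transcripts were added after the data were seen. Over 10045 genes, the deviations of same-numbered libraries had r of 0.179 to 0.265 in LP CD11b+ and CD103+ DCs. In the LP, r was 0.0797 to 0.273 for CD11b+ and DP DCs and 0.224 to 0.311 for CD103+ and DP DCs. In the LN, r was 0.0810 to 0.195 for CD11b+ and CD103+ DCs and 0.1099 to 0.292 for CD11b+ and DP DCs. For LN CD103+ and DP DCs it was 0.0565 to 0.132. Across tissues r was -0.156 to 0.111, a range that overlapped the lower values within tissues. No pair of replicates agreed within sampling noise (chi-square per gene of 14.9 to 64.9). Of the macrophage and the B cell marker lists, 1 gene each is not reported here.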

Additional observations from a re-analysis of the deposited data

Results flagged for a closer look

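Tgfb1 is listed because its change from LP to LN differed between the DC subsets in a test of that difference (edgeR F test on the subset by tissue interaction, adjusted p = 2.51e-05). The log2 fold changes were -0.90, -1.99 and -2.30 in CD11b+, CD103+ and DP DCs.

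Smad7 is listed for the same reason (adjusted p = 4.00e-04, edgeR), with log2 fold changes of -0.83, -0.66 and -2.04 in the same order.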

How the results depend on the processing

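Tests over 3 libraries a group and the few Tgfb3 and LP Smad3 reads limit precision. Of the 9 genes, 1 was called in LN against LP CD11b+ DCs, a number that became 2 with DESeq2 size factors, without the filter, at an adjusted p of 0.05 or without the 2 LN libraries with both sex-linked transcripts, 3 with DESeq2 as the test, 4 without the fold limit and 1 to 2 with a library left out. In LN against LP CD103+ DCs it went from 2 to 5 without the fold limit. In LN against LP DP DCs it was 5, and 4 to 6 with a library left out. In LP CD103+ against CD11b+ DCs it went from 2 to 1 under the filter of 100 counts (which left no value for Tgfb3) or with 6 libraries, to 4 without the fold limit, and to 1 to 2 with a library left out. In LN DP against CD11b+ DCs it went from 1 to 4 with total counts or without the fold limit, to 2 without the filter, under the filter of 100 counts, with DESeq2 as the test, 6 libraries, an adjusted p of 0.05, without those 2 LN libraries, with the replicate block and with the block nested in tissue, and to 1 to 2 with a library left out. In LN CD103+ against CD11b+ DCs it went from 3 to 2 with DESeq2 size factors, DESeq2 as the test or 6 libraries, to 4 with total counts or without the fold limit, and to 2 to 4 with a library left out. For the differences of the tissue effect, CD103+ minus CD11b+ went from 1 to 2 (DESeq2 as the test, or 0.05) and DP minus CD11b+ from 2 to 4 (0.05). The number called by the F test went from 2 to 3 with DESeq2 as the test and was 2 to 3 with a library left out. Smad2 in LN against LP DP DCs turned from -0.04 to 0.0148 without LN DP replicate 1, uncalled in both (range with a library left out -0.0940 to 0.0148). With the replicate block, Tgfb3 in LN against LP DP DCs had an edgeR adjusted p of 0.0136. No other call of the 9 genes changed beside that of Smad3 in the LN. Same-numbered libraries of LP and LN had r of -0.156 to 0.111. Over all genes the block moved the number called in LN against LP DP DCs from 5485 to 5450. Where a change is listed, its cause was not tested.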
